A study of Macaca fascicularis with 64 samples.

Results

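Glucose enters an islet cell through a transporter of the SLC2A family and is then phosphorylated to glucose-6-phosphate, and 7 genes of these steps were examined. They were the transporters SLC2A1 (GLUT1), SLC2A2 (GLUT2) and SLC2A3 (GLUT3), the hexokinases HK1 and HK2, the islet glucose-6-phosphatase subunit G6PC2 and the regulatory protein GCKR. They were taken as a fixed list of symbols from the 21041 macaque genes counted, and 6 of the 7 had a row, since SLC2A3 was not analysed here. Their unique molecular identifiers (UMIs, tags that mark single RNA molecules) were counted in 5908 cells with over 800 genes and over 10000 UMIs, of the 6141 cells deposited. Each cell was typed by the highest of 4 hormone transcripts, GCG, INS, SST and PPY, which gave 4503 α-cells, 1219 β-cells, 112 δ-cells and 74 PP-cells.

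In the β-cell, glucose is taken up, phosphorylated and metabolised, and the rate of these steps sets how much insulin is released. SLC2A2 is the low-affinity β-cell transporter of rodents, while human β-cells also carry SLC2A1. HK1 and HK2 are high-affinity hexokinases that are held low in mature β-cells, G6PC2 returns glucose-6-phosphate to glucose and so opposes its phosphorylation, and GCKR is best known from the liver.

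The cells came from pancreatic islets of 16 healthy cynomolgus monkeys (Macaca fascicularis), 8 young (4 to 6 years old) and 8 old (18 to 21 years old), each age made up of 4 females and 4 males, without any treatment or genetic change. Monkeys are named by age, sex and number, so that YF1 is a young female and OM4 an old male. Islets were hand-picked from the tail of the pancreas, single cells were picked by pipette, and each monkey gave 4 libraries and 338 to 381 retained cells. Each monkey was collected on a day of its own, so day and animal cannot be told apart. Pooled shares of cells, medians over cells and pooled folds count cells or UMIs over monkeys, as a description. The pooled shares include monkeys with fewer than 5 cells of a type. The monkey was the unit of every test, and a type entered a test for a monkey with at least 5 of its cells. This held for 16 monkeys in α- and β-cells, for 11 in δ-cells (7 young, 4 old) and for 6 in PP-cells (2 young, both male, and 4 old).

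The types were set beside marker sums, which include the hormones used for typing. The 8 β-cell markers measured, of 9 listed, summed to between 52120 and 93870 CPM (UMIs per 1000000 UMIs of macaque genes) in β-cells and to between 2173 and 14370 CPM in α-cells. The α-cell markers separated the types less: the 9 listed had a median sum of 153300 CPM in α-cells (120100 to 193000 CPM), 57300 CPM in β-cells (36320 to 87860 CPM), 61670 CPM in δ-cells and 86360 CPM in PP-cells. INS alone had a median of 61070 CPM in β-cells and GCG one of 75340 CPM in α-cells, so typing set part of these gaps. Among markers without a part in typing, IAPP of the β-cell list was at 2525 CPM in β- and 45.6 CPM in α-cells (medians). TTR, an α-cell marker, was at 72010 CPM in α- and 33440 CPM in β-cells. The β-cell marker ADCYAP1 went the other way, at 0 CPM in β-cells and 0.084 CPM in α-cells. Without PPY, the PP-cell markers separated PP- from α-cells little. SERTM1 was at 3.35 and 0.943 CPM, ID2 at 65.3 and 49.9 CPM and CARTPT at 0 and 0.271 CPM (medians). In 835 of the 1219 β-cells, against 299 of the 4503 α-cells, the highest hormone was under 4 times the second. The same held for 72 of the 112 δ-cells and 66 of the 74 PP-cells, and cells of that kind were kept. Median depth was 64894 UMIs per α-cell, 74425 per β-cell, 43776 per δ-cell and 45772 per PP-cell. YM3 stood apart in its α-cells, where immune markers summed to 1889 CPM against 1.93 to 318 CPM in the other monkeys. Typing had no class for other cells, so each retained cell took 1 of the 4 types. The study counted some cells as other than these types, more of them in YM3 than in any other monkey. Whether such cells lie among those typed here was not tested. No cell name was shared between libraries.

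SLC2A2 was the member that set the cell types apart. In β-cells it lay between 377 CPM (YF4) and 1025 CPM (YM3) over the 16 monkeys, with a median of 706 CPM and a mean of 690 ± 160 CPM (SD, n = 16). In α-cells it lay between 2.22 and 34.4 CPM, with a median of 6.22 CPM and a mean of 9.97 ± 10.1 CPM (SD, n = 16). The β-cell level was above the α-cell level in 16 of 16 monkeys, and the lowest β-cell value was over every value in another type.

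In δ-cells, SLC2A2 ranged from 0 (YF2 and YF3) to 19.8 CPM (OF1) with a median of 4.09 CPM over 11 monkeys, on 35 UMIs in all. In PP-cells it ranged from 4.79 to 22.6 CPM with a median of 9.65 CPM over 6 monkeys, on 38 UMIs. The values of these rarer types overlapped with those of α-cells. Between β- and α-cells of the same monkeys, edgeR put the log2 fold change at 6.61 (95% interval 6.08 to 7.15, standard error 0.27, adjusted p = 5.4e-26). Against δ-cells it gave 7.0 (standard error 0.37, adjusted p = 3.7e-21), and against PP-cells 6.0 (standard error 0.45, adjusted p = 4.5e-15). SLC2A2 was higher in β-cells in 11 of 11 and in 6 of 6 monkeys, respectively.

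The α-, δ- and PP-cells were not separated by SLC2A2. The log2 fold change of δ- against α-cells was -0.38 (95% interval -1.15 to 0.38, adjusted p = 0.498, edgeR), that of PP- against α-cells 0.61 (-0.25 to 1.47, adjusted p = 0.413) and that of PP- against δ-cells 1.00 (-0.04 to 2.03, adjusted p = 0.218). The median log2 fold change over all genes was -0.47, -0.37 and 0.09 in these 3 comparisons. The order of levels was thus β-cells first, with the other 3 types not ordered beyond their spread.

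Of the 6 members with a row, 3 passed the filter on low counts in the fit of the 4 types (SLC2A1, SLC2A2 and G6PC2), the last of them through its β-cell counts, so the number of members called is not read against the share over all genes. SLC2A2 and G6PC2 were called higher in β- than in α-cells, where 8.66% of the 12899 genes tested were called higher. Both were also called higher in β- than in δ-cells, where the share over all genes was 14.5%, and in β- than in PP-cells, where it was 10.6%. No member was called between δ- and α-cells (23.2% of all genes called), PP- and α-cells (6.61%) or PP- and δ-cells (10.3%).

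**Figure D1:**
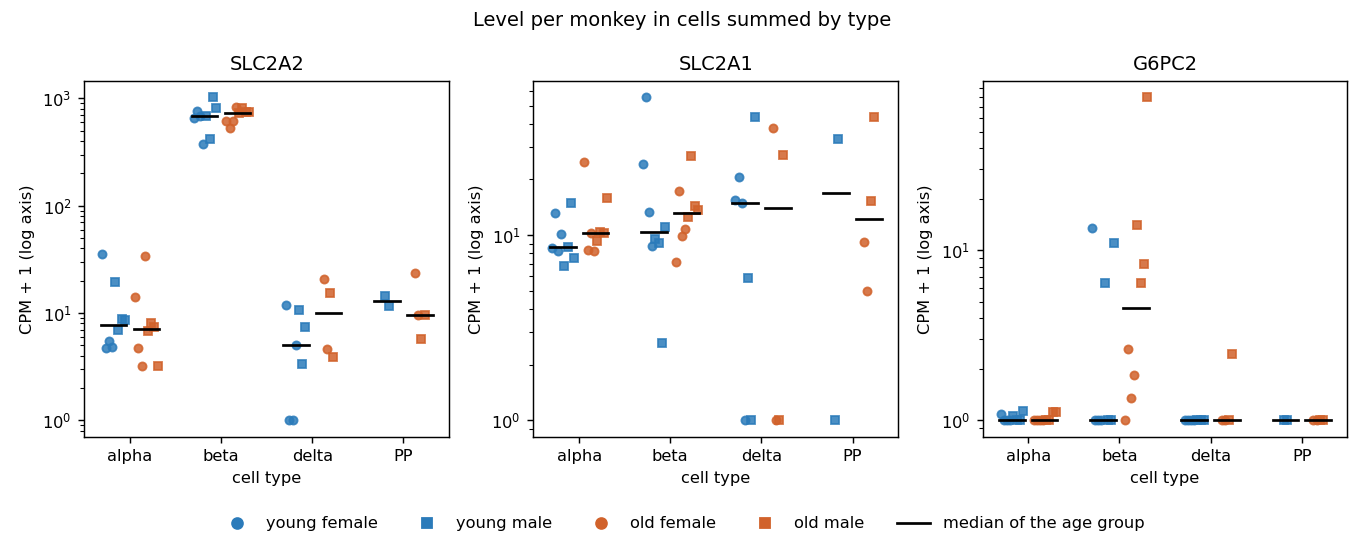
Level of SLC2A2, SLC2A1 and G6PC2 in each monkey, as CPM + 1 on a log axis, in the summed cells of each type. Points are monkeys (circles female, squares male), bars mark the median of the age group, and the β-cell points of SLC2A2, at 377 to 1025 CPM, lie above all others of that gene while those of SLC2A1 overlap between the types.

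Nearly all β-cells held SLC2A2 transcripts, in widely different amounts. A UMI was found in 1149 of 1219 β-cells (94.3%, Clopper-Pearson 95% interval 92.8 to 95.5%), and in 88.2% of them after each cell had been thinned to 10000 UMIs. Per cell, the 10th percentile was 72.3 CPM, the median 561 CPM and the 90th percentile 1296 CPM. The median per cell ran from 295 CPM in YF4 to 865 CPM in YF2, which had only 11 β-cells. Within YM3, the 25th and 75th percentiles of its 44 β-cells were 58.5 and 1830 CPM. Intervals of this kind cover counting error only.

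The 151 β-cells at or under 100 CPM of SLC2A2 were shallower than the other 1068, with a median of 40890 against 78826 UMIs and of 3280 against 4819 genes. They had 83350 CPM of INS, against 65570 CPM in the others, and 1338 against 2435 CPM of IAPP, the co-secreted islet amyloid polypeptide (medians). The highest hormone was under 4 times the second in 63.6% of them, against 69.2% of the others. These medians pool monkeys that gave unequal numbers, with 54 of the 151 cells from OF1, 25 from YM2 and 0 from OM3. In the 7 monkeys with at least 5 cells on either side, the low cells had the lower median depth in 7, the lower IAPP in 5 and the lower INS in 1. The part of depth in these values was not tested.

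**Figure D2:**
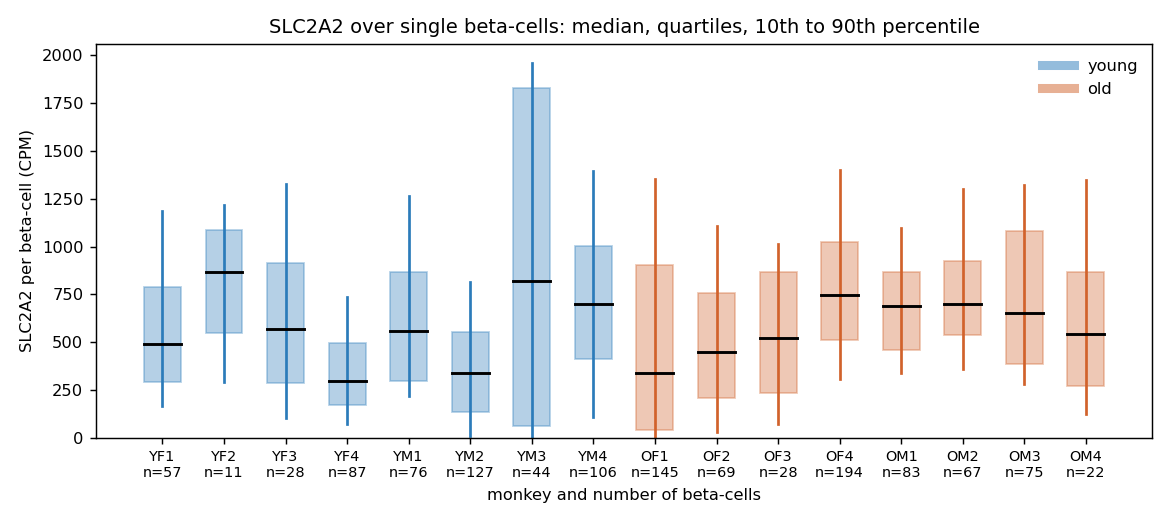
SLC2A2 per β-cell in CPM, by monkey. Black lines are medians, boxes the 25th to 75th percentiles and thin lines the 10th to 90th percentiles, with the number of β-cells under each monkey; medians run from 295 CPM (YF4) to 865 CPM (YF2), and young and old monkeys overlap.

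The low SLC2A2 values of α-cells were set beside those of other β-cell transcripts, since free RNA can give a cell UMIs of a gene that it does not express. A UMI of SLC2A2 was found in 1164 of 4503 α-cells (25.8%), and in 6.43% after thinning to 10000 UMIs. The thinned share was 5.36% in δ-cells and 10.8% in PP-cells. In 801 of these 1164 α-cells there was 1 UMI. As a share of the β-cell level of the same monkey, the α-cell level of SLC2A2 had a median of 0.869% (0.297 to 5.20%), that of IAPP 1.59% (0.480 to 5.30%) and that of INS 10.1% (2.24 to 27.3%). For each 1000 UMIs of IAPP there were 174 of SLC2A2 in α-cells and 273 in β-cells (medians), and the ratio was lower in α-cells in 16 of 16 monkeys.

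Pooled over monkeys, SLC2A2 passed 100 CPM in 54 α-cells (1.20%). In 34 of these 54, the highest hormone was under 4 times the second, against 265 of the other 4449. Their median INS was 32050 CPM, against 5303 CPM in the other α-cells, and their median depth 30678 against 65008 UMIs. Among α-cells with a clearly highest hormone (at least 4 times the second), SLC2A2 had a median of 5.63 CPM, against 26.9 CPM in the remaining α-cells of the same 14 monkeys, and was higher in the clear cells of 1 of these 14, while IAPP was higher there in 0. The split uses the hormones themselves, so INS is not read across it. The part of free RNA or of mixed cells in the SLC2A2 of α-cells was not tested. In β-cells the same split left SLC2A2 at 754 and 663 CPM (medians of 11 monkeys), higher in the clear cells in 9 of 11, with the values overlapping.

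SLC2A1, the broadly used high-affinity transporter, overlapped between the types. It lay between 5.80 CPM (YM1) and 23.9 CPM (OF1) in α-cells, with a median of 8.73 CPM over 16 monkeys. In β-cells it lay between 1.63 CPM (YM3) and 54.7 CPM (YF2), with a median of 10.8 CPM. In δ-cells the range was 0 to 42.7 CPM with a median of 13.9 CPM (11 monkeys, 4 of them at 0), and in PP-cells 0 to 42.7 CPM with a median of 11.3 CPM (6 monkeys, 1 at 0). The groups overlapped throughout, and β-cells were above α-cells in 11 of 16 monkeys.

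For β- against α-cells the log2 fold change of SLC2A1 was 0.51 (standard error 0.44, 95% interval -0.36 to 1.39, adjusted p = 0.437, edgeR). The other 5 pairs of types had log2 fold changes between 0.08 and 0.44 with adjusted p between 0.650 and 0.956 in edgeR, and their intervals reached from -1.37 to 1.96. Differences within these intervals could not be detected here.

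SLC2A1 was found in few cells and unevenly. A UMI was present in 15.97% of α-cells and 22.2% of β-cells at full depth, and in 5.58% (95% interval 4.92 to 6.29%) and 7.502% (6.08 to 9.13%) after thinning. The thinned shares in δ- and PP-cells were 4.46% and 4.05%, on 5 and 3 cells. In OF1, 1 α-cell held 190 of the 337 UMIs, and in YF2, 1 β-cell held 22 of the 34, so the highest value of either type rested mainly on 1 cell. Cells with an SLC2A1 UMI were deeper than those without, at a median of 72776 against 63530 UMIs in α-cells and 87723 against 70296 in β-cells. Their SLC2A2 was at 594 CPM, against 552 CPM in the β-cells without (medians).

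**Figure D3:**
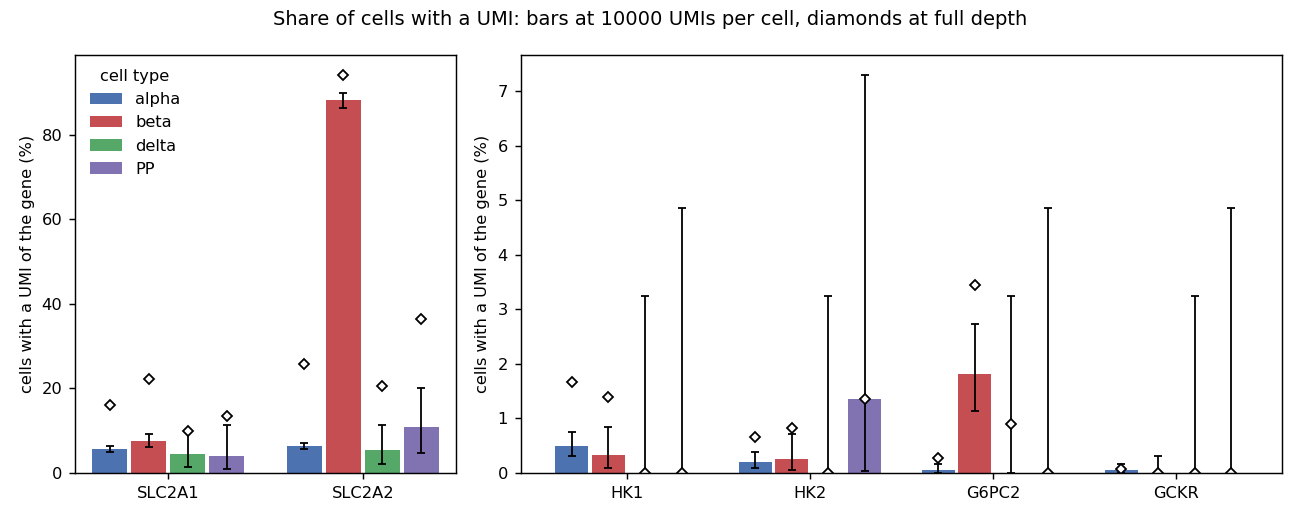
Share of cells with at least 1 UMI of each gene, by cell type. Bars show cells thinned to 10000 UMIs with Clopper-Pearson 95% intervals, and diamonds the share at full depth; SLC2A2 reaches 88.2% in β-cells, and no other gene of the right panel passes the 1.81% of G6PC2 in β-cells after thinning.

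G6PC2, whose product opposes glucose phosphorylation, was higher in β- than in α-cells and was found in a small share of β-cells. In β-cells it held 508 UMIs, in 42 cells (3.45%, 95% interval 2.49 to 4.63%) of 10 monkeys. OM4 had 78.7 CPM, where 1 cell held 98 of 130 UMIs, followed by OM1 with 13.0 CPM and YF1 with 12.5 CPM. The median of the 16 monkeys was 1.24 CPM, and OF1, YF2, YF3, YF4, YM2 and YM3 had no UMI.

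The 42 β-cells with a G6PC2 UMI held a median of 9 UMIs of it, and 8 of them held a single UMI. α-cells held 12 UMIs in 12 cells of 4503 (0.266%), 1 in each, with a highest value of 0.141 CPM. δ-cells held 1 UMI, and PP-cells held none in 74 cells, which allows a share of up to 4.05% of cells with a UMI. Pooled over monkeys, the level in β-cells was 134-fold that of α-cells (counting interval 76.0 to 261) and 24.7-fold that of δ-cells (4.41 to 977, on 1 UMI). Against a floor of 3 UMIs taken over all PP-cells it was 5.62-fold. These folds and intervals count each UMI as independent, while 98 of the 508 UMIs lay in 1 cell, so 5.62-fold is no lower bound. The share allowed in PP-cells (4.05%) and the upper 95% limit in δ-cells (4.87%) lie above the 3.45% of β-cells. In α-cells that limit was 0.465%.

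edgeR called G6PC2 higher in β-cells against α-cells (log2 fold change 6.37, standard error 0.69, adjusted p = 4.6e-09), δ-cells (adjusted p = 0.00342) and PP-cells (adjusted p = 0.00216). With no filter on low counts the adjusted p were 1.07e-09, 0.0041 and 0.00228 in edgeR. The calls rest on 12 UMIs in α-cells, 1 in δ-cells and 0 in PP-cells. G6PC2 was higher in β- than in α-cells in 10 of 16 monkeys, and both were at 0 in the other 6. With DESeq2 the calls against δ- and PP-cells were lost (adjusted p = 0.722 and 0.463), while that against α-cells remained (adjusted p = 0.00127). With at least 10 cells per sum, the call against PP-cells was also lost (adjusted p = 0.475, edgeR). The β-cells with a G6PC2 UMI had a median of 788 CPM of SLC2A2, against 636 CPM in the 735 other β-cells of the same monkeys, at similar depth (84159 and 81861 UMIs) and with 62640 against 64750 CPM of INS. These medians pool monkeys that gave unequal numbers, such as 2 of 194 β-cells with a UMI in OF4 and 10 of 83 in OM1. They were not compared within monkeys.

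HK1 and HK2, which start glycolysis in most other tissues, were near 0 in every type. HK1 had 187 UMIs in 75 α-cells (1.67%) and 63 UMIs in 17 β-cells (1.39%), and none in δ- or PP-cells, which allows a UMI in up to 2.68% and 4.05% of those cells and sets no limit on cells that express it without a UMI. Its level ranged from 0 to 3.65 CPM over the 16 monkeys in α-cells, with a median of 0.213 CPM, and from 0 to 7.53 CPM in β-cells, where 9 of 16 monkeys had no UMI. In α-cells, the highest value was that of YM3, where 1 cell held 56 of 65 UMIs. In β-cells it was that of YF1, where 1 cell held all 29.

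HK2 had 79 UMIs in 30 α-cells (0.666%), 10 UMIs in 10 β-cells (0.820%), 4 UMIs in 1 PP-cell and none in δ-cells. Its highest α-cell value, 2.30 CPM, was that of YM3, the monkey with the most immune marker RNA, where 30 of 41 UMIs lay in 1 cell. The other 15 monkeys had at most 0.994 CPM (OF1). Pooled over monkeys, β-cells had 1.07 times the HK1 of α-cells (counting interval 0.788 to 1.42) and 0.400 times the HK2 (0.185 to 0.775). These intervals count each UMI as independent, while 1 α-cell held 30 of the 79 HK2 UMIs. The share of cells with an HK2 UMI was not lower in β-cells (0.820% against 0.666%), so the fold is not read as a difference between types. Neither HK1 nor HK2 passed the filter on low counts in the fit of types, so neither was tested there.

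GCKR was listed with 58 UMIs, all in 3 α-cells of 2 young monkeys. In YF3, 1 cell held 34 UMIs, and in YM4, 2 cells held 15 and 9. The other 14 monkeys had no UMI in α-cells, and no UMI was found in 1219 β-cells, which allows a UMI in up to 0.246% of them. δ- and PP-cells had no UMI either.

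Other genes of glucose transport and phosphorylation were read beside these, as a list of 21, of which 18 had a row and 13 were tested between the types. In β- against α-cells, 1 was called higher (8.66% of all genes) and 4 lower (16.3% of all genes), with a median log2 fold change of -0.36 against -0.11 over all genes. SLC2A13, a transporter of myo-inositol, was at 133 ± 49.4 CPM in β-cells and 15.4 ± 8.63 CPM in α-cells (SD, n = 16), a log2 difference of 3.19 (95% interval 2.69 to 3.69, adjusted p = 2.7e-15, edgeR), and was higher in 16 of 16 monkeys. SLC5A1, the sodium-coupled glucose transporter SGLT1, was at 70.0 ± 28.2 CPM in α-cells and 8.74 ± 5.80 CPM in β-cells, a log2 difference of -3.08 (95% interval -3.77 to -2.38, adjusted p = 4e-10, edgeR). It was lower in β-cells in 16 of 16 monkeys. SLC2A9, a urate transporter, was at 13.1 CPM in α-cells and 2.75 CPM in β-cells (log2 fold change -3.13, adjusted p = 4.1e-06), and SLC2A8 was at 10.7 and 5.68 CPM (log2 fold change -1.23, adjusted p = 0.0462). G6PC3, the widely expressed glucose-6-phosphatase, and SLC37A4, which carries glucose-6-phosphate into the endoplasmic reticulum, had log2 fold changes of -0.06 and -0.36 and were not called.

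Of 26 genes of the next steps of glucose-6-phosphate, 20 were tested, and 2 were called higher and 5 lower in β- than in α-cells, with a median log2 fold change of -0.26 (over all genes 8.66% higher, 16.3% lower and a median of -0.11). PFKFB2, which sets the level of the activator of phosphofructokinase, was at 329 ± 156 CPM in β-cells and 22.5 ± 17.8 CPM in α-cells, a log2 difference of 4.11 (95% interval 3.60 to 4.62, adjusted p = 3.2e-19, edgeR), higher in 16 of 16 monkeys. PYGB, a glycogen phosphorylase, was at 7.74 against 18.6 CPM (log2 fold change -1.42, adjusted p = 0.00013).

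SLC2A1 and HK2 are also targets of the hypoxia response, so 20 genes of that response were read as well. Of the 16 tested, 5 were called higher and 1 lower in β- than in α-cells, with a median log2 fold change of 0.50 (over all genes 8.66% higher, 16.3% lower and a median of -0.11). The largest changes over 10 CPM were those of TMEM45A (log2 fold change 2.24, adjusted p = 3.3e-05) and P4HA1 (log2 fold change -1.20, adjusted p = 0.00282).

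**Figure D4:**
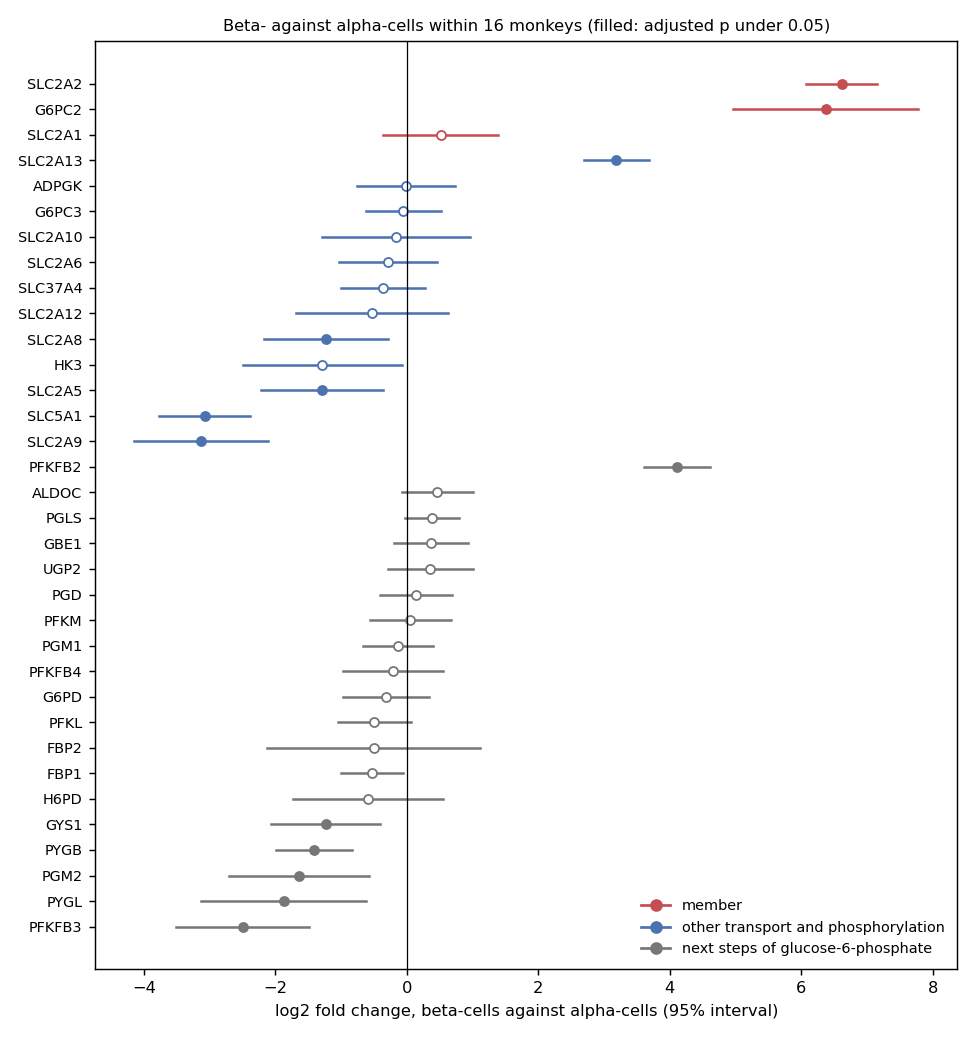
Log2 fold change of β- against α-cells with its 95% interval from edgeR, for the 3 members tested (red), other transport and phosphorylation genes (blue) and genes of the next steps (grey). Filled points have an adjusted p under 0.05; SLC2A2 (6.61) and G6PC2 (6.37) lie furthest to the right, and the interval of SLC2A1 (0.51) includes 0.

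The second question was whether any of these genes differed between old and young monkeys, and none passed the test. In β-cells, SLC2A2 had a lowest, median and highest value of 377, 683 and 1025 CPM in the 8 young monkeys and of 529, 736 and 827 CPM in the 8 old ones. Both the lowest and the highest monkey were young, and the old range lay within the young one. With sex as a covariate, edgeR put the log2 fold change at 0.02 (95% interval -0.36 to 0.40, standard error 0.18, adjusted p = 0.999).

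In α-cells, SLC2A2 had values of 3.71, 6.76 and 34.4 CPM in young monkeys and of 2.22, 6.16 and 32.7 CPM in old ones (log2 fold change -0.36, standard error 0.56, adjusted p = 0.925). SLC2A1 in α-cells had values of 5.80, 7.60 and 13.9 CPM in young and of 7.22, 9.30 and 23.9 CPM in old monkeys (log2 fold change 0.31, standard error 0.27, 95% interval -0.26 to 0.88, adjusted p = 0.861). In β-cells they were 1.63, 9.36 and 54.7 CPM and 6.14, 12.1 and 25.7 CPM (log2 fold change 0.00, adjusted p = 0.999, edgeR). Its standard error of 0.72 (95% interval -1.49 to 1.49) is unsteady, since it was derived from a fold change near 0. For sex, the same fit gave SLC2A1 in β-cells a standard error of 0.535. In all of these the age groups overlapped.

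No member was called by age in any type. Over all genes, edgeR called 0 of 12916 genes in α-cells (886 at an unadjusted p under 0.05, 23 with DESeq2), 5 of 10628 in β-cells (0.0470%; 589 at an unadjusted p under 0.05, 39 with DESeq2, and 2 to 8 when a monkey was left out), and 0 in δ-cells and in PP-cells (209 and 394 at an unadjusted p under 0.05, 3 and 2 with DESeq2). SLC2A1 and SLC2A2 passed the filter in α- and β-cells, no member in δ-cells and SLC2A1 alone in PP-cells, where its interval reached from -3.33 to 5.18. None of the genes of the 3 further lists was called either. The difference of the age effect between β- and α-cells passed the test for none of the 4 members tested, with log2 differences of 0.40 for SLC2A2, -0.19 for SLC2A1, 1.99 for G6PC2 and 0.71 for HK1 (edgeR, adjusted p from 0.933 to 0.996). It was called for 0 of 13322 genes (806 at an unadjusted p under 0.05, 10 with DESeq2).

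G6PC2 in β-cells was found in 3 of 8 young monkeys (YF1, YM4 and YM1) and in 7 of 8 old ones, all but OF1. It was too low for the test of age within β-cells. Per monkey, the thinned share of β-cells with a G6PC2 UMI was 1.63 ± 2.29% in young and 3.09 ± 4.56% in old monkeys (SD, n = 8 each), and the exact permutation test over monkeys (two-sided) gave p = 0.504. At full depth the shares were 2.34 ± 3.44% and 6.28 ± 6.28%, with an exact permutation p of 0.141. The median depth of a β-cell was 64782 UMIs in young and 81435 UMIs in old monkeys, so the thinned value is the one compared at equal depth.

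The share of cells with a UMI was tested in the same way for every member in α- and β-cells, 11 tests in all, since GCKR had no UMI in β-cells. For SLC2A2 in β-cells it was 86.2 ± 7.98% in young and 90.6 ± 10.2% in old monkeys (exact permutation p = 0.355, adjusted p = 0.693). For SLC2A1 it was 6.11 ± 2.08% and 4.92 ± 1.43% in α-cells (exact permutation p = 0.214, adjusted p = 0.693) and 8.28 ± 5.49% and 8.47 ± 2.76% in β-cells (exact permutation p = 0.935). None of the 11 tests passed, with adjusted p from 0.693 to 0.935 in these exact permutation tests.

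**Figure D5:**
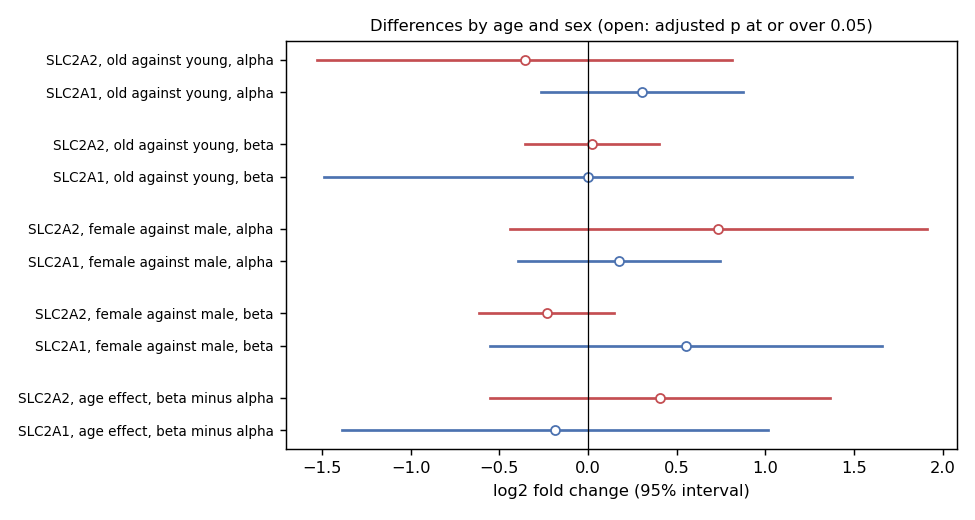
Log2 fold changes of SLC2A2 and SLC2A1 by age and sex with 95% intervals from edgeR, in α- and β-cells, and the difference of the age effect between these types. All points are open (adjusted p at or over 0.05) and every interval includes 0. That of SLC2A2 for age in β-cells, from -0.36 to 0.40, is among the narrowest. The interval of SLC2A1 for age in β-cells was derived from a fold change near 0 and is unsteady.

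Between females and males, only SLC2A1 and SLC2A2 passed the filter on low counts, and neither was called. In β-cells, SLC2A2 had a lowest, median and highest value of 377, 638 and 827 CPM in females and of 419, 748 and 1025 CPM in males (log2 fold change of female against male -0.23, standard error 0.18, adjusted p = 1.0, edgeR). For SLC2A1 the log2 fold changes were 0.17 in α-cells and 0.55 in β-cells (adjusted p = 0.999 and 1.0). G6PC2 was not tested by sex. Its β-cells held 73 UMIs in females (0 to 12.5 CPM) and 435 in males (0 to 78.7 CPM), of which 130 came from OM4. Of all genes, 0 were called by sex in α-cells and 0 in β-cells (753 and 424 at an unadjusted p under 0.05, and 26 and 11 with DESeq2).

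The test of whether age acted differently in the sexes gave SLC2A1 in β-cells a log2 difference of -2.45 (standard error 0.89, unadjusted p = 0.0117, adjusted p = 1.0, edgeR). Its mean was 24.5 ± 21.1 CPM in young females and 10.3 ± 4.32 CPM in old females, and 7.10 ± 3.75 CPM in young males and 15.8 ± 6.60 CPM in old males (SD, n = 4 each). The highest young female was YF2, with 34 UMIs in 11 β-cells. With β-cells of a clear hormone alone, the log2 difference turned to 1.36 (standard error 2.16, adjusted p = 0.979, edgeR). The result did not pass the correction over the genes tested, of which 0 were called in β-cells and 1 in α-cells (0.00774%).

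The genes whose level was most like that of each member were found by Pearson correlation of log2(CPM + 1) among genes with a mean of at least 10 CPM, as a description without a test. Over the 49 sums of a monkey and a type, SLC2A2 was most like BEST3 (r = 0.945), INS (0.939) and IAPP (0.921), a value that rests on the gap between β-cells and the rest. Within the 16 β-cell sums it was most like FAH (0.796), ENSMFAG00000030463 (0.772) and SRD5A3 (0.753). SLC2A1 was most like LSM8 (0.645), CRBN (0.615) and COA1 (0.612) over all sums, and like PAFAH1B3 (0.849), TSR1 (0.825) and SPAG6 (0.813) over β-cell sums. G6PC2 was most like VAT1L (0.667), ENTPD3 (0.589) and ASB9 (0.579) over all sums, and like LBH (0.876), DCAF17 (0.844) and MRPL12 (0.821) over β-cell sums. Of the 16 β-cell sums, 6 held no G6PC2 UMI, and in the highest, that of OM4, 1 cell held 98 of 130 UMIs. In the β-cell sum of YF2, the highest for SLC2A1, 1 cell held 22 of 34 UMIs.

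For the sparse members these values rested on few UMIs. HK1 and HK2 each had a UMI in 12 of the 16 α-cell sums. In the highest of these, that of YM3, 1 cell held 56 of 65 HK1 UMIs and 1 cell 30 of 41 HK2 UMIs. HK1 was most like IGFBP6 (0.541), SPARC (0.461) and IFI27 (0.460) over all sums and like DRG1 (0.850), ARHGDIB (0.830) and ENSMFAG00000040995 (0.801) over α-cell sums. HK2 was most like JCHAIN (0.481), Mafa-DRA (0.472) and CD74 (0.460), which are immune genes, over all sums, and like PSMD4 (0.889), EIF2S2 (0.876) and RBM8A (0.849) over α-cell sums. GCKR, with 2 sums above 0, was most like ENSMFAG00000006345 (0.409), ENSMFAG00000007971 (0.369) and DYNLL1 (0.365) over all sums, and like RBM4 (0.769), ENSMFAG00000007971 (0.724) and ENSMFAG00000001492 (0.690) over α-cell sums. The sums of a monkey share its libraries and collection day.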

How the data were processed

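The deposited files hold UMI counts per gene and cell, 1 file for each of 64 libraries, made by the authors from a modified single-cell tagged reverse transcription protocol: reads were aligned to Macaca_fascicularis_5.0 with TopHat2 2.0.12, and uniquely mapped reads were counted with HTSeq, each UMI once. The submitters' processing notes also name CASAVA 1.8. From these counts, cells with over 800 genes and over 10000 UMIs (spike-ins included) were kept. The filter of the study on mapping rate was not applied, and doublets were not called. The 95 spike-in RNAs were left out of all totals.

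Cells were summed per monkey and type (at least 5 cells). Sums of 206257 to 27439498 UMIs entered edgeR 4.0.16 (R 4.3.3; TMM, filterByExpr, quasi-likelihood test, Benjamini-Hochberg over all genes tested, called at an adjusted p under 0.05), with the monkey as a block for types and sex as a covariate for age. Levels are printed as CPM without TMM. Standard errors were derived as the size of the log2 fold change over the square root of the F statistic of the same fit. The 95% intervals came from these standard errors, and both are unsteady where the fold change is near 0. Shares of cells used exact permutation tests over monkeys, which went through every split of the monkeys, after thinning each cell to 10000 UMIs. For thinning, 39 α-cells and 6 β-cells were too shallow. Clopper-Pearson intervals were computed with scipy 1.17.1. The fits were first run on simulated counts without monkey effects, in which only genes over 10 CPM were changed. That run does not cover sparse members.

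The text names every member and, from each list for β- against α-cells, the genes with an adjusted p under 0.05, a log2 fold change over 1 in size and a mean of at least 10 CPM in one of the types, up to 4 rises and 4 falls each, with, for each member, the 3 genes most like it over all sums and over the α- or β-cell sums (the types with 16 monkeys), whichever had its higher level. G6PC3 and SLC37A4 were named outside this rule, for their roles. Some genes of the lists are counted in them but not reported here by name. The members and lists were chosen with earlier results of these data known. Same-numbered monkeys did not deviate together (correlations from -0.0806 to 0.133), so their numbers pair nothing. Alternatives were DESeq2 1.42.0, RLE factors, no filter on low counts, sums without the 4 hormones, thinned cells, a clearer hormone (at least 4 times the second, or at least 10000 CPM), over 2000 genes and 20000 UMIs, no cells above the 95th percentile of UMIs, at least 10 cells, each monkey left out, and other blocks and covariates.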

Additional observations from a re-analysis of the deposited data

Results flagged for a closer look

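In 29 groups of 4 to 8 monkeys (a member, a type and an age), 11 had a highest monkey whose gap to the next was over Dixon's 95% critical value, where chance flags about 1 in 20 groups of normally distributed values. Many of these groups are sparse counts set by 1 cell or a few UMIs, so that rate is not compared with the 11. SLC2A1 was at 23.9 CPM in the α-cells of OF1, where the next old monkey was at 14.8 CPM, and at 54.7 CPM in the β-cells of YF2, where the next young monkey was at 23.4 CPM. SLC2A2 was at 32.7 CPM in the α-cells of OF4, the next old monkey being at 13.1 CPM; 1 cell held 217 of its 472 UMIs. G6PC2 was at 78.7 CPM in the β-cells of OM4, against 13.0 CPM in the next, and at 1.45 CPM in its δ-cells on 1 UMI.

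HK1 was at 7.53 CPM in the β-cells of YF1, on 29 UMIs of 1 cell, against 0.746 CPM in the next young monkey. HK2 was at 2.30 CPM in the α-cells of YM3, against 0.236 CPM in the next, and at 1.22 CPM in its β-cells on 3 UMIs. In old monkeys HK2 was at 0.994 CPM in the α-cells of OF1 (next 0.208 CPM), at 0.169 CPM in the β-cells of OM1 on 1 UMI, and at 2.67 CPM in the PP-cells of OF2 on 4 UMIs of 1 cell. Their causes were not tested. No member passed a test of a difference between age effects in the sexes or types.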

How the results depend on the processing

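SLC2A2 was called higher in β- than in α-cells under every alternative tried (log2 fold change 6.18 to 7.14), and leaving out any monkey changed no count of members called. With DESeq2, G6PC2 was called in δ- against α-cells (5.16) and not in β- against δ- or PP-cells, so the members called were 1, 1 and 1. After thinning, 1 member was called in β- against α-, δ- and PP-cells, since G6PC2 was not tested, and 1 in β- against δ-cells with a clear hormone and against PP-cells with at least 10 cells. Too few sums were left to run PP-cell comparisons or age in δ-cells with a clear hormone, or age in PP-cells with at least 10 cells or with the monkey numbers as a block. The cause of the other changes was not tested.

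Genes called moved as follows. With DESeq2 they were 1350 for PP- against α-cells, 2103 for PP- against δ-cells, 23, 39, 3 and 2 for age in α-, β-, δ- and PP-cells, 26 and 11 for sex in α- and β-cells, 1 for sex by age in β-cells and 10 for age by type. With at least 10 cells they were 5135 (β against α), 47 (PP against α), 372 (β against PP), 272 (PP against δ) and 3 (age, δ). With a clear hormone they were 1220 (δ against α), 1214 (β against δ) and 1 (age, β). Without a filter they were 21, 3 and 9 for age in β-, δ- and PP-cells, 23 for sex in β-cells and 1 for sex by age. With thinned cells they were 746 (PP against δ), 2 (age, β) and 2 (age by type), without the deepest cells 2 (age, β), and without a covariate 1 (age, PP). Leaving out a monkey gave 2 to 8 for age in β-cells, 0 to 10 in PP-cells, 0 to 1 and 0 to 2 for sex in α- and β-cells, 0 to 1 for sex by age in β-cells and 0 to 1 for age by type.

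Values that changed sign were all uncalled. For SLC2A1 between types they were -0.82 (thinned), -2.08 (clear hormone) and -0.29 (without the deepest cells) for δ against α, -0.83 for PP against α and -1.24 for PP against δ (at least 10 cells), and -0.13 (DESeq2) and -0.12 (RLE) for β against PP; G6PC2 was at 3.56 for PP against α (DESeq2). For age, SLC2A1 was at -0.19 in α-cells (thinned) and in β-cells at 0.011 (no filter), 0.41 (clear hormone), 0.002 (hormone of at least 10000 CPM) and 0.23 (without the deepest cells), and SLC2A2 at 0.29 (clear hormone) and 0.063 (without the deepest cells) in α-cells and -0.039 (thinned) in β-cells. For sex in α-cells SLC2A1 was at -0.10 (thinned) and SLC2A2 at -0.10 (clear hormone). For sex by age SLC2A1 was at -0.67, -0.59 and -0.54 in α-cells (thinned, clear hormone, without the deepest cells) and 1.36 in β-cells (clear hormone), and SLC2A2 at 0.64 and 0.045 in β-cells (clear hormone, without the deepest cells). For age by type SLC2A1 was at 0.26, 0.021 and 0.33 under the same 3. Shares differed by 1.11 points for SLC2A1 in α-cells without thinning, and with a clear hormone by -4.90 for SLC2A2 and -0.62 for G6PC2 in β-cells.

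Leaving out a monkey, SLC2A1 ran from -0.26 to 0.31 (δ against α), -0.15 to 0.74 (PP against α), -0.15 to 0.68 (β against PP), -0.17 to 0.90 (PP against δ), -0.26 to 0.42 (age, β), -0.075 to 7.13 (age, PP), -0.064 to 0.33 (sex, α), -0.48 to 0.26 (sex by age, α) and -0.51 to 0.13 (age by type). SLC2A2 ran from -0.88 to 0.23 (age, α), -0.07 to 0.16 (age, β), -0.072 to 2.45 (sex by age, α) and -0.32 to 0.16 (sex by age, β), G6PC2 from -1.22 to 1.07 (δ against α) and HK1 from -0.018 to 1.27 (age by type).

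Without the replicate block of monkeys, PP- against δ-cells had 2097 genes called, and SLC2A1 was at -0.093 for β against δ and -0.27 for β against PP. With monkey numbers as a replicate block for age and sex, which they do not pair, 6 genes were called by age in β-cells against 5 without it, SLC2A1 was at 0.14 for age in β-cells and -0.018 for sex by age in α-cells, and no member was called. SLC2A1 in β- against δ-cells with at least 10 cells could not be estimated. Members under about 1 CPM, δ-cells and PP-cells are limited by few UMIs, and counts in few cells by single cells.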
